A study of Mus musculus with 10 samples.

Results

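The guanylate binding proteins (GBPs) are large GTPases that cells make when interferon reaches them, above all interferon gamma. The 10 mouse genes described here, Gbp2 to Gbp11, were taken by symbol from a table of 36009 rows, in which each of the 10 has a single row. The RNA came from pieces of subcutaneous tumors that the mouse fibrosarcoma line WEHI 164 had formed in adult, wild-type, female BALB/c mice. Each piece was cut out when most of the tumor was removed, so the RNA was collected before any poly(I:C), a double-stranded RNA that activates Toll-like receptor 3. A hydrogel loaded with poly(I:C) was then laid on the residual tumor of every mouse, and the mice were followed. The 5 responders (RS; tumors 5, 9, 10, 11 and 12) regressed completely, and the 5 non-responders (NR; tumors 1, 2, 3, 6 and 7) grew with no delay, each from its own mouse. All 10 tumors were untreated at sampling, and all were grown from 1 transplanted line, so they do not represent tumors of different origin. The labels give no sequencing batch, and the responders have the higher tumor numbers except for responder 5, which stands between non-responders 3 and 6.

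In the classical pathway interferon gamma binds its receptor, the kinases JAK1 and JAK2 carry the signal on from it, and transcription factors such as IRF1 turn on the GBP genes. GBPs assemble on the vacuoles and membranes of intracellular microbes together with the immunity-related GTPases and help to activate inflammasomes through caspase-11, the product of mouse Casp4. In tumors their mRNA is widely read as a sign that cells in the tissue have met interferon. A piece of tumor holds cancer cells, stroma and leukocytes, and in such bulk RNA more expressing cells and more RNA per cell cannot be told apart.

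The responder libraries held 16002949 to 31160790 estimated counts each and the non-responder libraries 19863863 to 28276142, and the 10 GBP genes took up 0.0649% to 0.160% of a tumor's total. The labelled tissue was checked against markers. Vim, for the mesenchymal filament vimentin, was high in every tumor, with means of 4863 ± 425 (RS) and 4665 ± 363 CPM (NR; SD, n = 5 each), and Epcam had at most 11 counts in a tumor. The simple-epithelium keratin gene Krt8 was nevertheless present, at 174 ± 21.5 and 185 ± 29.4 CPM (SD, n = 5 each). CPM here is the estimated count scaled to a common library size after TMM normalization, which corrects for differences in RNA composition.

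The genes lie in 2 clusters. On chromosome 3 of GRCm38 (GENCODE vM21) the plus strand carries Gbp5 (chr3:142493978-142522344), Gbp7 (chr3:142530342-142550149), Gbp3 (chr3:142560026-142573209) and Gbp2 (chr3:142620602-142638008). On chromosome 5 the minus strand carries Gbp8 (chr5:105014150-105139540), Gbp9 (chr5:105077630-105139539), Gbp4 (chr5:105115767-105139586), Gbp10 (chr5:105215699-105239533), Gbp6 (chr5:105270702-105293698) and Gbp11 (chr5:105323042-105346472). Gbp4, Gbp8 and Gbp9 overlap each other on the same strand, Gm43302 overlaps both Gbp6 and Gbp10, and Gm43802 overlaps Gbp7. All are annotated as protein coding except Gbp11, a polymorphic pseudogene. The values are sums over the annotated transcripts of a gene, that is, over its exons.

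RefSeq promoter windows of build GRCm38.p6, from 250 bases before to 50 bases after a transcription start, were matched for 4 of the 10 genes, Gbp2, Gbp3, Gbp5 and Gbp7, in 5 windows because Gbp3 has 2 starts. Gbp4, Gbp6, Gbp8, Gbp9, Gbp10 and Gbp11 were not matched. Because these genes moved together across tumors, the windows were searched on both strands for the interferon-stimulated response element as the letters TTTC, any 2 bases, and TTTC again, and for the gamma-activated site as the letters TTCNNNGAA, which reads the same on both strands. All 4 genes held the first motif, against 3.99% of all genes and 3.44% of 32851 promoter windows. The RefSeq starts used for Gbp2, Gbp3 and Gbp5 lie inside the GENCODE spans of these genes, so the distances below hold for RefSeq starts, and by GENCODE the motif of Gbp2 and that of Gbp5 lie within the gene. The stretches below are shown because they hold that shared motif, in capitals, and all are on the plus strand.
Gbp2 (chr3:142620594-142620623): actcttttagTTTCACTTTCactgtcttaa
Gbp3 (chr3:142559989-142560018): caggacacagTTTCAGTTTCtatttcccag
Gbp5 (chr3:142496759-142496788): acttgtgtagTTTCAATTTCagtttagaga
Gbp7 (chr3:142530273-142530302): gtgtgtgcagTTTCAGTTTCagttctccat

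The motif began 59 bases before the RefSeq start in Gbp2, 45 in Gbp3, 165 in Gbp5 and 53 in Gbp7, and in Gbp3 a second match, overlapping the first, began 39 bases before it. The gamma-activated letters occurred in Gbp5 and Gbp7, at 2 positions each, and in 8.3% of all windows. No match overlapped between the 2 motifs. The Gbp7 matches and the Gbp5 match nearer to the start are shown, with the motif in capitals.
Gbp5 (chr3:142496872-142496900): tggccgttatTTCTCAGAAccaagcacag
Gbp7 (chr3:142530220-142530248): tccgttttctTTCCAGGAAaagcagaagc
Gbp7 (chr3:142530239-142530267): aagcagaagcTTCTCAGAAagtcagcaca

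How well the table can separate the genes differs from gene to gene, because Kallisto assigns reads by short words of sequence and shares out those that fit several transcripts. With words of 31 bases, 4.85% of the words of Gbp2 and 3.10% of those of Gbp5 also occur in a transcript of another gene, and for Gbp5 0.0299% occur in another GBP. Gbp3 shares 5.64% and Gbp7 14.7%, of which 3.69% of its words occur in another GBP. On chromosome 5 the shares are 14.9% for Gbp4, 18.3% for Gbp9, 31.1% for Gbp8, 34.3% for Gbp11, 74.3% for Gbp6 and 89.8% for Gbp10. For Gbp6 and Gbp10 much of this lies with the overlapping Gm43302, which has 67.8% and 76.7% of their words. Gm43302 is annotated but has no row of its own in the table of counts, so it has no value here. The shares with other GBPs are 57.6% for Gbp6 and 85.0% for Gbp10. Whether Gm43302 was among the transcripts that reads were assigned to is not given in the sources used here. Gbp6 and Gbp10 are the closest pair, with 98.4% identity over 1833 coding bases and 30 mismatches, so their split is uncertain and their sum is given as well. The 60 coding bases from position 1567 to 1626, where they differ most, are printed to show how little tells them apart, with the 9 differing bases in capitals.
Gbp6: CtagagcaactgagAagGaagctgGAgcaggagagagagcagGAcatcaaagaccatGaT
Gbp10: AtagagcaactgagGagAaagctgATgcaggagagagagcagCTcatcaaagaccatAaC

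Levels can be compared between genes only per length, here as mean CPM per kilobase of the longest protein-coding transcript over the 10 tumors. Among the 10 genes Gbp2 was the most abundant at 95.9 CPM per kilobase, followed by Gbp4 at 73.7, Gbp3 at 53.4 and Gbp7 at 31.9. Each of these lay above the next, and Gbp7 above Gbp5, in 10 of 10 tumors. Gbp5, at 24.6, Gbp9, at 22.5, and Gbp6, at 21.3, were close: Gbp5 lay above Gbp9 in 6 of 10 tumors and Gbp9 above Gbp6 in 9. Gbp10 had 11.6 and Gbp8 8.66 CPM per kilobase, and Gbp11 was the least abundant at 4.11, an order that again held in 10 of 10 tumors. With the length of all exons of a gene together in place of the longest coding transcript, 6 of the 10 genes kept their place, Gbp5 and Gbp9 changed places, and so did Gbp6 and Gbp10. The levels themselves depend on the length: Gbp5 then had 11.3, Gbp6 9.33, Gbp4 44.6 and Gbp11 2.03 CPM per kilobase. For Gbp11 the transcript of 1329 bases used first is shorter than the 1857 coding bases of its other annotated transcript, so its level is uncertain. By the first length the 4 of these genes on chromosome 3 all ranked among the upper 5, with Gbp4 as the only chromosome 5 gene beside them. Gbp2b, a further GBP gene of chromosome 3, was not ranked. Its mean was 351 CPM in responders and 230 in non-responders over 2823 bases, beside 288 and 195 CPM over 2516 bases for Gbp2.

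**Figure D1:**
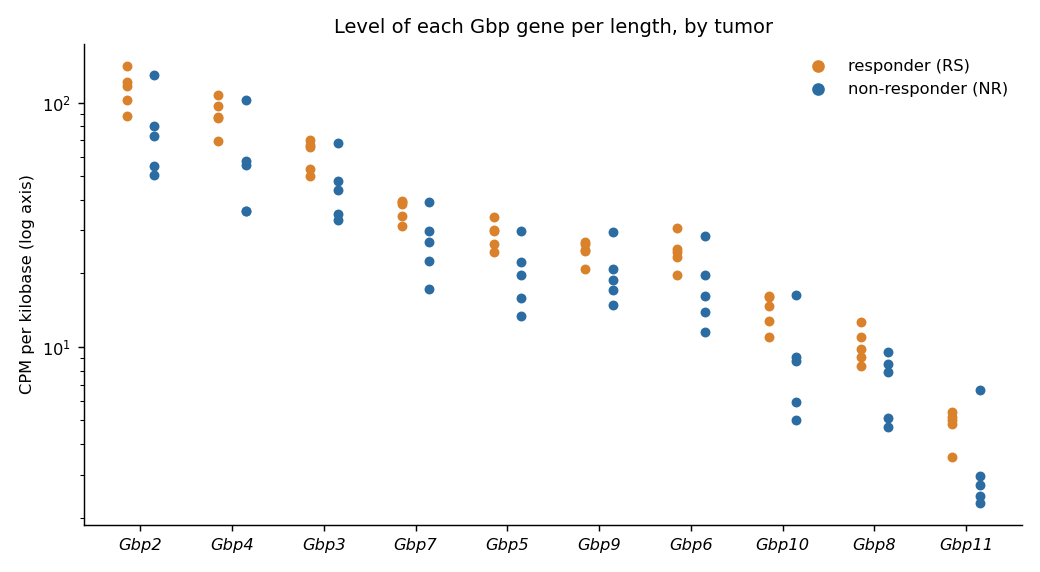
Level of each GBP gene in CPM per kilobase (log axis), 1 point per tumor, responders in orange and non-responders in blue, genes ordered by their mean. The means run from 95.9 for Gbp2 to 4.11 for Gbp11, and the order of the abundant genes is the same in both groups.

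The comparison of responders with non-responders asks whether GBP expression differed before treatment between tumors that later regressed and those that did not. All 10 genes passed the filter on low counts (CPM above 0.37 in at least 3 tumors) and the responder mean was the higher for all 10, where 48.6% of the 15767 features tested had a log2 fold change above 0. The responder level was 1.22-fold the non-responder level for Gbp9 and up to 1.58-fold for Gbp10. On the log2 scale, where the log2 fold change (LFC) is responders minus non-responders, the median was 0.51 against -0.0036 over all features. All 10 LFC were at least 0.25, as were 8.69% of all features. No GBP gene passed an adjusted p of 0.05 in the quasi-likelihood test of edgeR (Benjamini-Hochberg), where adjusted p ran from 0.58 to 0.64, and neither did any other feature (0% of 15767). DESeq2 called 1 feature, not a GBP gene, and limma-voom called 0. At an unadjusted p under 0.05, 8 of the 10 were higher in responders, against 4.20% of all features (663 higher, with 631 lower). The genes moved together, so these 8 are not 8 separate results. Leaving out non-responder 2 lowered this count from 8 to 5, and leaving out non-responder 7 lowered it to 3. The p-values measure the spread between tumors of separate mice.

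**Figure D2:**
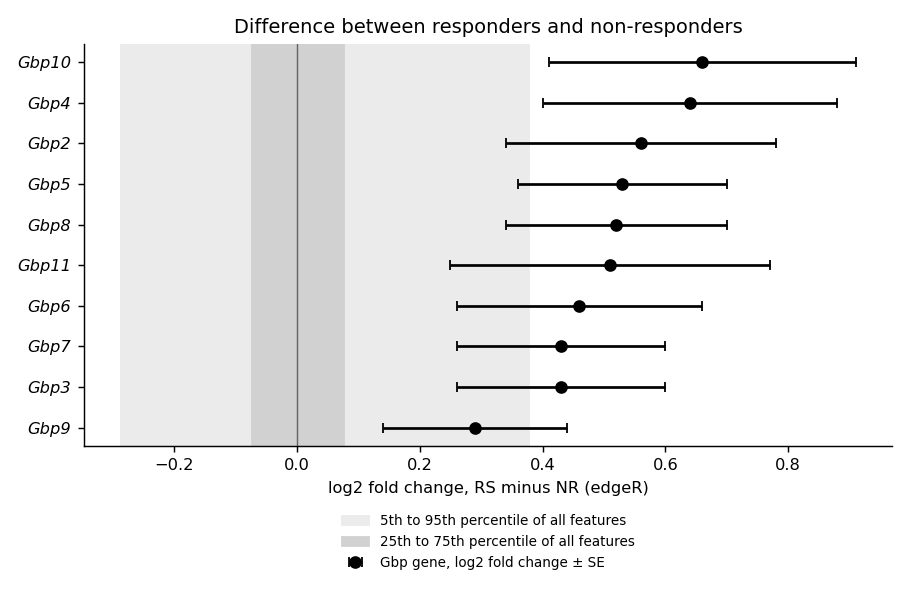
Log2 fold change of each GBP gene, RS minus NR, from edgeR, with its standard error as bars; shaded bands give the 5th to 95th and the 25th to 75th percentile of the 15767 features tested. All 10 genes lie above 0, from 0.29 for Gbp9 to 0.66 for Gbp10, and no adjusted p was under 0.05.

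The prenylated members come first. Gbp2, which carries a lipid anchor and coats parasite vacuoles, had 295, 306, 222, 356 and 259 CPM in responders 5, 9, 10, 11 and 12. In non-responders 1, 2, 3, 6 and 7 it had 201, 138, 327, 183 and 127 CPM. Non-responders 1, 2, 6 and 7 lay below every responder, and non-responder 3 lay above all responders but number 11, so the groups overlapped through a single tumor. The means were 288 ± 50.5 and 195 ± 79.8 CPM (SD, n = 5 each), with LFC 0.56 (standard error, SE, 0.22, adjusted p = 0.586, edgeR). Gbp5, also lipid-anchored and known as a promoter of inflammasome activation, had 90.9, 92.3, 74.9, 104 and 80.7 CPM in responders 5, 9, 10, 11 and 12. In non-responders 1, 2, 3, 6 and 7 it had 68.0, 41.0, 90.9, 59.9 and 48.3 CPM. The same 4 non-responders lay below every responder, and 3 responders lay above every non-responder, responder 5 by less than the printed digits show. Its LFC was 0.53 (SE 0.17, unadjusted p = 0.00938, adjusted p = 0.58, edgeR), the smallest unadjusted p of the family.

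Gbp3 and Gbp7 are the remaining genes of the set on chromosome 3. Gbp7, linked to the oxidative killing of microbes in phagocytes, had 176 to 222 CPM in responders and 97.0 to 221 in non-responders, with non-responder 3 at the top of its group and non-responder 2 at the bottom. Gbp3 had 134 to 189 CPM in responders and 88.8 to 183 in non-responders. For both genes 4 non-responders lay below every responder. Their LFC were 0.43 each (SE 0.17 each, adjusted p = 0.586, edgeR).

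On chromosome 5 Gbp4 was the most abundant, with 398, 438, 317, 488 and 394 CPM in responders 5, 9, 10, 11 and 12. In non-responders 1, 2, 3, 6 and 7 it had 251, 164, 466, 263 and 163 CPM. Non-responder 3 alone of its group reached the range of the responders. The LFC was 0.64 (SE 0.24, adjusted p = 0.586, edgeR). Gbp10 had the largest LFC of the family, 0.66 (SE 0.25, adjusted p = 0.586), from 51.9, 57.2, 38.8, 56.3 and 45.2 CPM in responders 5, 9, 10, 11 and 12 and 30.8, 17.7, 57.6, 32.0 and 21 CPM in non-responders 1, 2, 3, 6 and 7. For Gbp10 no responder reached non-responder 3, while the other non-responders lay below every responder. Its near-identical neighbor Gbp6 had 51.4 to 79.9 CPM in responders and 30.0 to 73.8 in non-responders, an LFC of 0.46 (SE 0.2, adjusted p = 0.591). For Gbp6 non-responder 6, at 51.5 CPM, also reached the lowest responder, number 10 at 51.4. Summed to 1 feature, Gbp6 and Gbp10 had 0.54 (SE 0.22, adjusted p = 0.589), and all 6 genes of the cluster summed had 0.55 (SE 0.22, adjusted p = 0.588), both within the range of the single genes.

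Gbp8 and Gbp11 had the fewest counts, and Gbp9 showed the widest overlap. Gbp8 had 20.6 to 31 CPM in responders and 11.6 to 23.5 in non-responders, with an LFC of 0.52 (SE 0.18, adjusted p = 0.58, edgeR). For Gbp8 responder 5 was the lowest responder and lay below non-responder 1, whereas in the other 9 genes responder 10 was the lowest. Gbp9 had 90.9 to 118 CPM in responders and 65.1 to 130 in non-responders, the smallest LFC at 0.29 (SE 0.15, adjusted p = 0.64). Gbp11, with 78 to 198 counts per tumor, had 4.69 to 7.21 CPM in responders and 3.05 to 8.86 in non-responders, with an LFC of 0.51 (SE 0.26, adjusted p = 0.631). For Gbp9, Gbp10 and Gbp11 non-responder 3 was the highest of all 10 tumors.

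**Figure D3:**
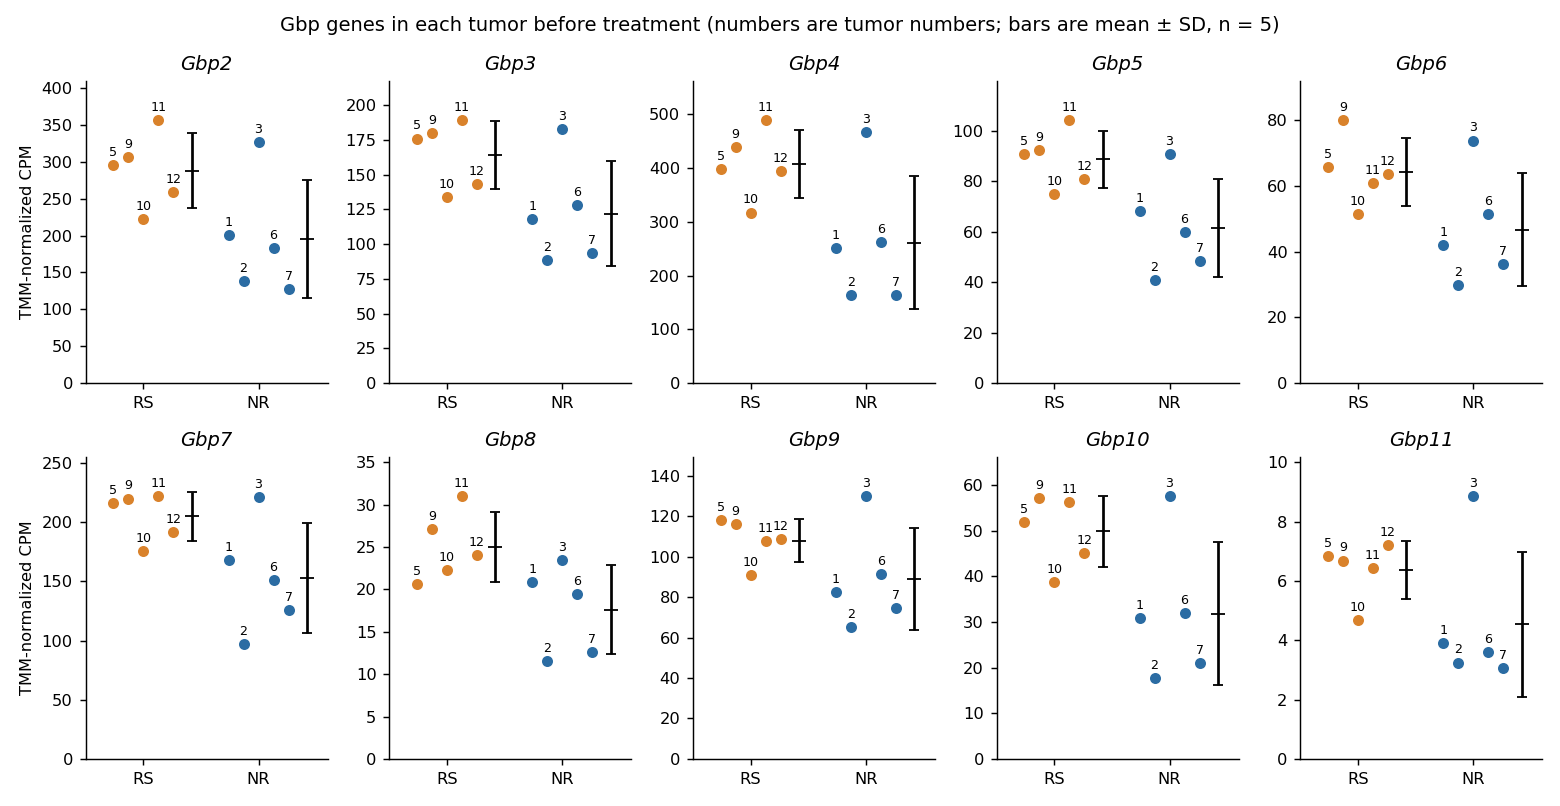
TMM-normalized CPM of each GBP gene in each tumor (vertical axes start at 0), responders in orange and non-responders in blue, with tumor numbers at the points and the mean ± SD of each group (n = 5) as a bar. In every panel non-responder 3 stands inside or above the responders, and non-responders 2 and 7 are the lowest tumors.

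Seen by tumor, the genes agreed on the highest non-responder and on the lowest tumors. Summed over the 10 genes, responders 5, 9, 10, 11 and 12 had 1440, 1523, 1132, 1622 and 1317 CPM, and non-responders 1, 2, 3, 6 and 7 had 985, 656, 1582, 982 and 706. Non-responder 3 was the highest non-responder, and non-responders 2 and 7 were the lowest of all tumors, for 10 of 10 genes. In 7 of 10 genes at least 4 non-responders lay below every responder, against 2.89% of all features. No gene had all responders above all non-responders, which 0.336% of features had. The highest tumor had 2-fold to 3.25-fold the lowest in non-responders and 1.26-fold to 1.6-fold in responders, and this ratio was larger in non-responders for all 10 genes, against 51.9% of all features. Without non-responder 3 the non-responder ratio was 1.28-fold to 1.81-fold and the larger for 8 genes, not for Gbp2 and Gbp11, against 43.4% of all features, so much of the wider spread came with that tumor.

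Leaving out non-responder 3 moved these values. Without it the LFC ran from 0.47 for Gbp9 to 0.98 for Gbp10 with a median of 0.7, all 10 genes had an unadjusted p under 0.05 (4.81% of 15692 features were higher in responders at that level), and adjusted p ran from 0.233 to 0.393 in edgeR, still above 0.05. Non-responder 3 was singled out because it was the highest of its group for every GBP gene, so these values describe its weight and are no separate support. Its library of 19863863 counts was the smallest of the non-responders and within the range of the responders.

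Pearson's r between pairs of GBP genes over the 10 tumors, on log2(CPM + 1), had a median of 0.942 over 45 pairs and ran from 0.759 to 0.99. The 24 pairs with 1 gene in each cluster had a median of 0.939, from 0.874 to 0.989. With the group means taken out, the median over all pairs was 0.913, so the genes kept step within the groups too. These values are descriptions, since the pairs share genes and all rest on the same 10 tumors. Gbp5, which shares almost no 31-base words with the rest, had r = 0.979 with the mean of the other 9, and Gbp8 had the lowest such value, 0.903.

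The genes whose pattern was most like that of the family were ranked by Pearson's r over the 10 tumors between log2(CPM + 1) and the mean of the 10 standardized GBP genes, over 14934 named features, whose median r was -0.0286. Among the first 10 were Igtp (r = 0.997), Tgtp1 (0.996), Gbp2b (0.991), Gm12185 (0.987), Apol6 (0.986), Iigp1 (0.985), Irgm2 (0.983), Gm4951 (0.982) and Tgtp2 (0.981). Of these, Igtp, Tgtp1, Iigp1, Irgm2, Gm4951 and Tgtp2 were on the list of immunity-related GTPases, the smaller GTPases that act with GBPs on vacuoles. Gbp2b is a further GBP gene (chr3:142594847-142619179), between Gbp3 and Gbp2. It had 367, 385, 272, 419 and 310 CPM in responders 5, 9, 10, 11 and 12 and 236, 144, 422, 209 and 139 CPM in non-responders 1, 2, 3, 6 and 7, with an LFC of 0.61 (SE 0.26, adjusted p = 0.591, edgeR). The same 10 genes led the ranking when the group means were taken out. Irf1 ranked 14th with r = 0.97, and Ifng, at 20 to 121 counts per tumor, ranked 365th with r = 0.713. With the group means taken out, Irf1 had r = 0.948 (rank 19) and Ifng r = 0.516 (rank 970).

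**Figure D4:**
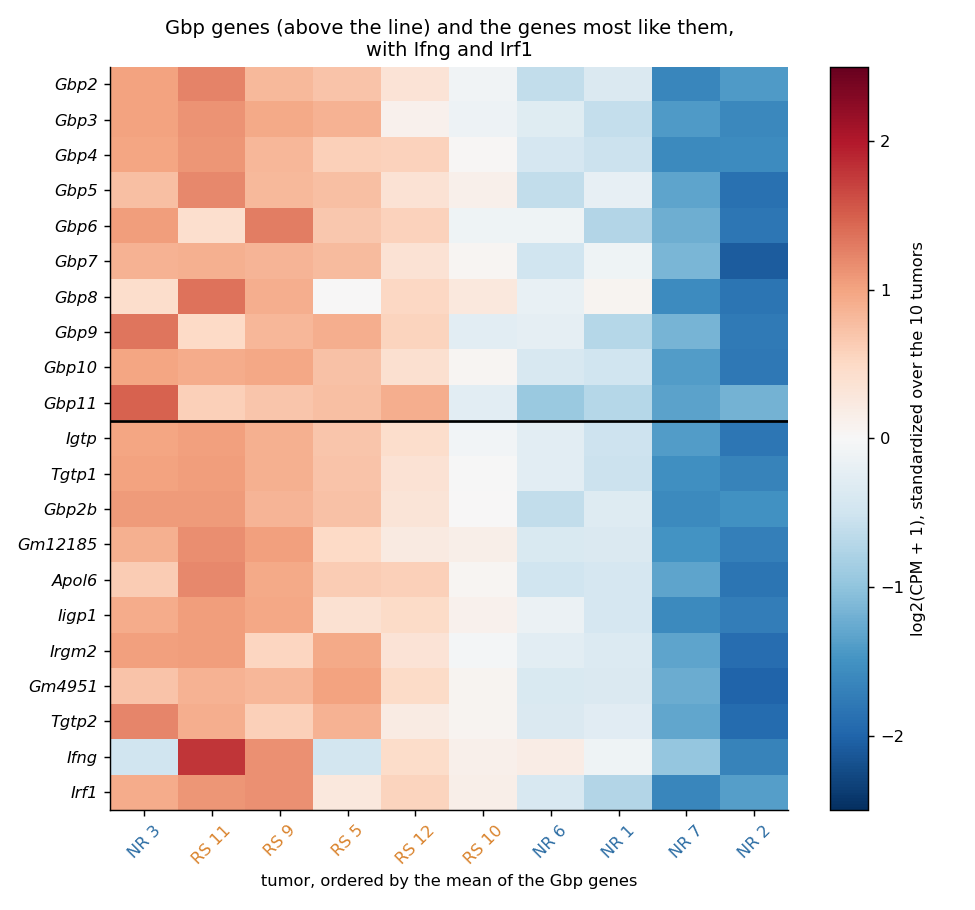
Standardized log2(CPM + 1) of the 10 GBP genes, 9 of the 10 genes most like them, Ifng and Irf1 (rows) in the 10 tumors (columns), ordered by the mean of the GBP genes and with tumor names in orange (responders) or blue (non-responders). Non-responder 3 stands at the high end beside responders 11 and 9, and non-responders 7 and 2 stand at the low end.

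The rest of the interferon pathway was read from lists chosen for this purpose, from the ligands downward, and no gene on them had an adjusted p under 0.05. Among the ligands, 1 of 8 genes passed the filter. Ifng, the interferon gamma gene made by NK and T cells, had 1.48, 3.06, 1.97, 3.94 and 2.30 CPM in responders 5, 9, 10, 11 and 12 and 1.76, 0.715, 1.46, 2.03 and 1.13 CPM in non-responders 1, 2, 3, 6 and 7. Its LFC was 0.86 (SE 0.3, adjusted p = 0.58, edgeR). Responder 5 and non-responder 3, both high in GBP mRNA, had 1.48 and 1.46 CPM of Ifng, beside 1.76 and 2.03 in non-responders 1 and 6. At 20 to 121 Ifng counts per tumor such small differences are uncertain and were not tested. Ifnb1, for interferon beta, had at most 4 counts, and Ifna1, Ifna5, Ifnl2 and Ifnl3 had none in any tumor. A count of 0 allows up to 3 counts, which is 0.0963 to 0.187 CPM depending on the library and covers counting error only.

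The receptors and kinases pass the signal inward. Of 7 genes 6 had a higher and 1 a lower mean in responders, 0 had an unadjusted p under 0.05, and the median LFC was 0.09. The smallest p were for Ifnar2, a chain of the type I receptor, at 0.16 (SE 0.09), Jak2 at 0.15 (SE 0.08) and Ifnar1 at 0.09 (SE 0.05). The transcription factors had 10 of 10 genes with a higher mean in responders, against 48.6% of all features, and a median LFC of 0.26. Of the 10, 5 had an unadjusted p under 0.05, against 4.20% of all features higher in responders. Irf1, a direct activator of GBP genes, had 373 ± 41.6 and 280 ± 72.3 CPM (RS and NR; SD, n = 5 each), 0.41 on the log2 scale (SE 0.14, adjusted p = 0.58, edgeR). Irf8, a factor of myeloid cells, had 0.45 (SE 0.14, adjusted p = 0.58), and Batf2 had 0.68 (SE 0.26). For Irf1, Irf8 and Batf2 alike, 4 non-responders lay below every responder, where 2.89% of all features had at least 4. Other genes of the same list overlapped more, down to 0 non-responders below every responder. Of the 6 feedback inhibitors none had an unadjusted p under 0.05, with a median LFC of 0.08. Socs1, which blocks JAK kinases, had 0.29 (SE 0.13), Ptpn2 0.07 and Socs3 0.1.

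The targets of the pathway were read last. All 12 immunity-related GTPases that were matched had a higher mean in responders, against 48.6% of all features, with a median LFC of 0.39. Of the 12, 7 had an unadjusted p under 0.05, against 4.20% of all features higher in responders. The smallest p were for Gm4951 at 0.46 (SE 0.15), Irgm1, a regulator of the group, at 0.38 (SE 0.14) and Igtp at 0.52 (SE 0.21). Of 14 other targets of interferon gamma all 14 had a higher mean, against 48.6% of all features, with a median of 0.5. Of the 14, 12 had an unadjusted p under 0.05, against 4.20% of all features higher in responders. Among them Cd274, for the checkpoint ligand PD-L1, had 0.78 (SE 0.21), Cxcl10, a chemokine that draws T cells, 0.5 (SE 0.14) and Ubd, a ubiquitin-like modifier, 0.73 (SE 0.21), each with an adjusted p of 0.58, from edgeR. The GTPases Mx1 and Mx2, better known as targets of type I interferon, had an LFC of 0.01 (SE 0.12) and 0.07 (SE 0.11). Gvin1, with 0 to 36 counts, had 0.03 (SE 0.83). The difference between these and the GBPs was not tested. A list of 10 partners held 9 genes of the inflammasomes on which GBPs act and Rnf213, a large ubiquitin ligase that is not an inflammasome gene. Of the 10, 9 had a higher mean in responders and 3 an unadjusted p under 0.05, Casp4 (0.27, SE 0.1), Gsdmd, the pore former (0.18, SE 0.07), and Rnf213 (0.21, SE 0.09). The 5 enzymes that attach and trim lipid anchors had a median of -0.02, with 1 higher and 4 lower in mean and none with an unadjusted p under 0.05. Rce1, which trims the protein after prenylation, had the largest, 0.14 (SE 0.08), with Pggt1b at -0.05 and Fntb at -0.04.

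**Figure D5:**
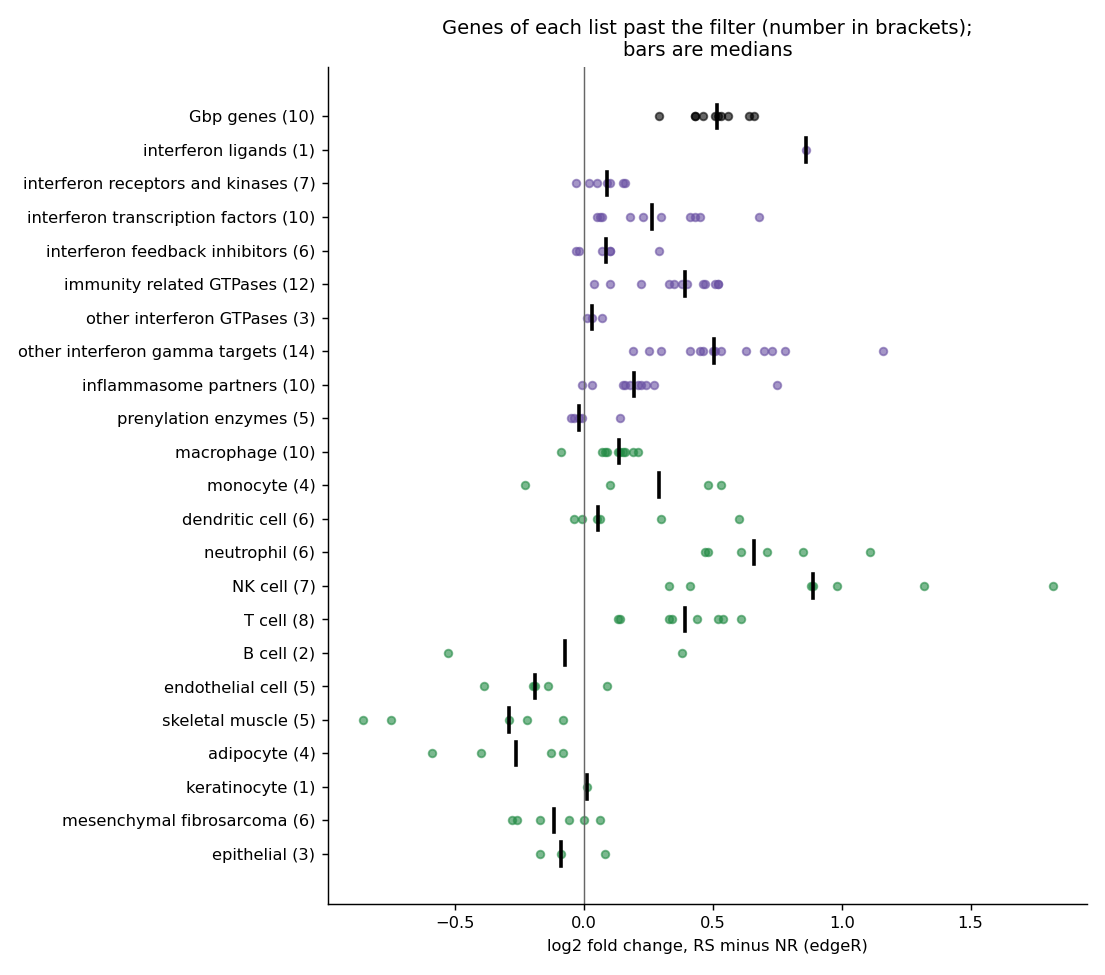
Log2 fold change, RS minus NR, of every gene past the filter in each list, 1 point per gene, with the median as a bar and the number of genes in brackets; GBP genes in black, pathway lists in purple, markers of cell types and tissues in green. The medians are 0.51 for the GBPs, 0.39 for the immunity-related GTPases, 0.89 for NK cells and 0.14 for macrophages, and no gene shown had an adjusted p under 0.05.

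Markers of cells that make interferon gamma or respond to it were set beside the GBPs, and their part in the difference was not tested. Of 7 NK cell markers all 7 had a higher mean in responders, against 48.6% of all features, with a median LFC of 0.89. Of the 7, 6 had an unadjusted p under 0.05, against 4.20% of all features higher in responders. Summed over the list, with Gzma the most abundant gene, responders 5, 9, 10, 11 and 12 had 34.3, 114, 129, 212 and 123 CPM, and non-responders 1, 2, 3, 6 and 7 had 71.3, 28.7, 42.0, 69.6 and 35.1. Responder 5 and non-responder 3, at 1440 and 1582 CPM of GBP mRNA, thus had NK sums within the range of the other non-responders. The 8 matched T cell markers all had a higher mean in responders, with 0 under an unadjusted p of 0.05, a median of 0.39, and sums of 51.7 to 123 CPM in responders and 51 to 92.7 in non-responders. Thy1 was the most abundant of them. Responder 5 was again the lowest of its group, at 51.7.

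Macrophage markers, led by C1qa for a complement subunit, summed to 1557 to 2108 CPM in responders and 1451 to 1941 in non-responders, with 9 of 10 higher in mean, none with an unadjusted p under 0.05 and a median LFC of 0.14. Responder 11 was the highest at 2108 CPM, as it was for NK cell markers, while non-responder 3 had 1688 and responder 5, the lowest responder, had 1557. Monocyte markers (most abundant Ccr2) had 3 of 4 higher in mean, with 1 higher and 1 lower at an unadjusted p under 0.05, dendritic cell markers (Zbtb46) had 4 of 6 higher, 1 of them at that level, and neutrophil markers (Csf3r) 6 of 6 with a median of 0.66 and 1 with an unadjusted p under 0.05. Of the 4 B cell markers 2 passed the filter, with Cd79b the most abundant at 0.596 CPM, a level of 8 to 29 counts per tumor. Endothelial markers, led by Pecam1, had 1 higher and 4 lower in mean, with a median of -0.19, and 2 lower at an unadjusted p under 0.05.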

How the data were processed

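Pieces of 10 WEHI 164 tumors (5 responders, 5 non-responders) were sequenced as poly(A) RNA. The authors estimated transcript abundance with Kallisto, summed it to genes with tximport on the mm10 (GRCm38) reference, and deposited estimated counts per gene, not scaled to depth or length; the annotation release is not given in the sources used here. That reference is a C57BL/6 genome, whereas the tumors are BALB/c, and the effect of this was not tested.

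Rows of 1 name were summed, the 9580 rows with no name (1.2% to 1.49% of a tumor's counts) were each kept as a feature (823 of those tested), and fractional counts were rounded. The filter on low counts (CPM above 0.37 in at least 3 tumors) is that of the study's methods for its time-course samples. Responders and non-responders were compared with edgeR 4.0.16 (TMM, quasi-likelihood test, Benjamini-Hochberg adjustment over 15767 features) in R 4.3.3; DESeq2 1.42.0 and limma 3.58.1 were alternatives, with other normalizations, filters, summed paralogs and each tumor left out. Each standard error was taken as the size of the log2 fold change divided by the root of its F statistic. The common dispersion gave a coefficient of variation of 10.4% between tumors. On simulated counts for this comparison (15580 features) the test recovered 172 of 200 changed features, all in the right direction. It recovered 82% at 2-fold and 95.7% at 4-fold, leaving out changed features that the filter removed. It also called 10 unchanged features, and 0 when nothing was changed. Changes as small as those of the GBP genes, 1.22-fold to 1.58-fold, were not simulated, so recovery at that size is not known.

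The genes and lists were chosen with earlier results of these data known. Named genes were the 10 GBPs, Ifng, Irf1, the 3 of each pathway list with the smallest p, the most abundant gene of each marker list and the 10 most like the family; 1 gene that this rule names is not reported here. Batf2, Ifnb1, Epcam, Col1a1, Krt1 and the ligands without counts were named after their values were seen. Of the lists, all genes were matched but 1 immunity-related GTPase, 1 other GTPase and 1 T cell marker; Fam26f was matched as Calhm6. Plots used matplotlib 3.10.9, and coding sequences were aligned with Biopython 1.88.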

Additional observations from a re-analysis of the deposited data

Results flagged for a closer look

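Over 73 measures in the 2 groups of 5 tumors, 7 values stood apart from the rest of their group, each lying farther from its neighbor than 0.71 of the full range of that group. About 7.3 of 146 are due to chance alone at this limit. Gbp11 accounted for 2 of them, in log2(CPM + 1): responder 10 had 2.51 against 2.9 to 3.04 in the other responders, and non-responder 3 had 3.3 against 2.02 to 2.3 in the other non-responders. Mx1 was 5.32 in responder 5 against 4.79 to 4.92, and Vim was 12.46 in responder 11 against 12.17 to 12.2. As summed CPM, the feedback inhibitors of interferon signaling had 338 in non-responder 7 against 381 to 395, the prenylation enzymes had 226 in responder 11 against 235 to 236, and the monocyte markers had 166 in responder 10 against 187 to 194.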

How the results depend on the processing

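Under 20 alternatives, 192 fold changes of GBP genes were recomputed. All 192 stayed above 0 and had an adjusted p above 0.05, so no direction or call changed. Other normalizations, filters, DESeq2, limma-voom and summed paralogs gave 0.29 to 0.8 (adjusted p 0.344 to 0.789), and leaving out 1 tumor gave 0.19 to 0.98 (adjusted p 0.209 to 0.879). The median ran from 0.4 without non-responder 2 to 0.7 without non-responder 3, and all 10 genes had a higher mean in responders wherever they were not summed. The count of GBP genes with an unadjusted p under 0.05, 8 as reported, ran from 3 to 10 with 1 tumor left out. DESeq2 called 1 of the 15767 features and leaving out a tumor called 0 to 9, none of them a GBP gene. Protein sequences were not used here, so paralogs were summed by coding identity, chosen after seeing the data. Leaving out the rows without a name, also chosen after seeing the data, kept 14944 features, called 0, and gave a median of 0.52 with 8 GBP genes at an unadjusted p under 0.05. Gbp11, at 78 to 198 counts per tumor, had the fewest counts of the GBP genes. The ratio of the highest to the lowest tumor with each tumor left out was added after seeing the data.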

Other observations

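Skeletal muscle markers, with Acta1 the most abundant, summed to 60.4 to 177 CPM in responders and 87.9 to 172 in non-responders, all 5 lower in mean in responders, 2 of them with an unadjusted p under 0.05 in edgeR. Adipocyte markers, led by Fabp4, summed to 18.3 to 34.8 and 17.7 to 39.2 CPM. Of 5 keratinocyte markers, Krt10 alone passed the filter, at 3.09 CPM, and Krt1 had no count in any tumor. Of the 6 mesenchymal markers 5 had a lower mean in responders, with a median log2 fold change of -0.11 and 1 with an unadjusted p under 0.05, Col1a1 (log2 fold change -0.28, standard error 0.09, adjusted p = 0.58 from edgeR).

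The 10 genes kept their proportions between the 2 clusters. Per length of the longest coding transcript, the 6 genes of chromosome 5 made up 41.1 ± 1.36% of the sum of the 10 in responders. In non-responders they made up 40.0 ± 1.62% (SD, n = 5 each). Single tumors ran from 38.6% to 43.1%, while the summed CPM of all 10 genes ran from 656 to 1622. Gbp2b, on chromosome 3, is not counted in these shares, and the shares depend on the length used.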
